A study of Mus musculus with 4 samples.

Results

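The Cfap (cilia and flagella associated protein) genes were examined for RFX2 occupancy of their promoters in mouse testis. Members were all protein-coding genes whose symbol begins with Cfap followed by a number in the GENCODE annotation of GRCm38, which gave 31 of 21938 protein-coding genes. Cfap genes annotated under another symbol, such as Maats1 (Cfap91) and Wdr66 (Cfap251), are therefore not members. RFX2 was immunoprecipitated from testis chromatin of wild type mice of a mixed C57BL/6, 129/Sv and FVB/N background, in 2 ChIP samples that the series describes as 2 independent mice, and 2 input samples without antibody were sequenced beside them. The labels give decapsulated testis of postnatal day 29 to 30, whereas the text of the study describes germ cells of postnatal day 21, and the peak lists do not settle the age. The testis holds several cell types, so the cells in which a promoter was occupied cannot be told apart, and no ChIP from testis lacking RFX2 was analysed here. Each ChIP sample has a list of peaks called against input, with 39825 peaks in replicate 1 and 21274 in replicate 2, and a further list of 2726 peaks, here called the combined list, was treated as a call on the pooled reads of both samples.

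Cfap proteins are parts of the axoneme, the microtubule scaffold of motile cilia and of the sperm tail, or factors needed to build it. In the axoneme, outer doublet microtubules carry dynein arms and radial spokes around a central pair of microtubules, and proteins bound inside the doublet wall stabilise it. RFX2 belongs to the RFX family of winged-helix transcription factors, which bind the X-box, an inverted repeat found at promoters of many ciliary genes, and it is abundant in the testis. A promoter was taken as the stretch from 1000 bp upstream to 500 bp downstream of any annotated transcription start site (TSS) of the gene, and a gene was counted where at least 1 bp of a peak met it.

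The X-box was searched as the 14-letter palindrome made of GTTGCCA and its reverse complement TGGCAAC, on both strands, within 100 bp of the summit, the position of highest signal in a combined peak. Summit positions are given from the nearest annotated TSS of the gene, which may be an internal one. At Cfap36, Cfap44, Cfap45, Cfap53, Cfap69, Cfap126 and Cfap298 it belongs to a transcript not annotated as protein-coding. Sequences are shown for the 6 Cfap promoters with the highest −log10 p, for that with the lowest, and for those matching the palindrome with at most 1 mismatch, to show how closely the bases under the strongest and weakest RFX2 peaks resemble it. They are from the RefSeq GRCm38 genome on the strand of the gene, 5′ to 3′. Capitals mark the best X-box match, or at Cfap54 and Cfap126 a pair of X-box arms, GTTGCC and GGCAAC, set 1 base closer than in the palindrome.
Cfap65 (chr1:74935615-74935644, minus strand): ttgccgtcGTTGCCATGGGATAccaaaaga
Cfap57 (chr4:118620767-118620796, minus strand): gttttctcGTTGCTATAGGAACtgctctag
Cfap161 (chr7:83794865-83794894, minus strand): actgcctgGTCGTCATGGCAACgaagcacg
Cfap298 (chr16:90935016-90935045, minus strand): gggttttgGTTGCCCGGGCAACagctactt
Cfap20 (chr8:95435033-95435106, minus strand): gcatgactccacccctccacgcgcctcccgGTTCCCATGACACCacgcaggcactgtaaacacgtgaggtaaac
Cfap54 (chr10:93081630-93081658, minus strand): gggagatcGTTGCTTGGCAACcgcttgtc
Cfap126 (chr1:171123125-171123153, plus strand): cttctgcaGTTGCCAGGCAACaagtgtaa
Cfap44 (chr16:44394764-44394793, plus strand): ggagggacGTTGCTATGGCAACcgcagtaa
Cfap97d1 (chr11:101984190-101984263, plus strand): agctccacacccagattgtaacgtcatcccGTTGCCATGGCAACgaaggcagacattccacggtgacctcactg
Cfap97d2 (chr8:13705854-13705883, plus strand): aaggcctgGGTGCCATGGCAACcgtcacat

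The promoters of 28 of the 31 Cfap genes met an RFX2 peak in replicate 1 and those of 29 in replicate 2. Among the 21907 other protein-coding genes, 13.9% had a promoter peak in replicate 1 and 11.2% in replicate 2. In both replicates, 28 Cfap genes, or 90.3% (exact 95% binomial interval 74.3 to 98.0%), had a promoter peak, beside 8.93% of the other genes. The combined list, whose lowest score is higher, held a promoter peak for 23 Cfap genes, or 74.2% (55.4 to 88.1%), beside 5.16% of the other genes. The intervals cover counting error only. The difference between the 2 replicates is the only measure of spread between animals, and no test was made. Cfap genes had a median of 5 annotated TSSs, from 1 to 12, and the other genes a median of 3, so that more sequence counted as promoter for a typical Cfap gene. With only the 5′-most TSS of each gene, 26 Cfap genes had a promoter peak in both replicates, beside 6.93% of the other genes. In the combined list it was 21, beside 4.34%.

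**Figure D1:**
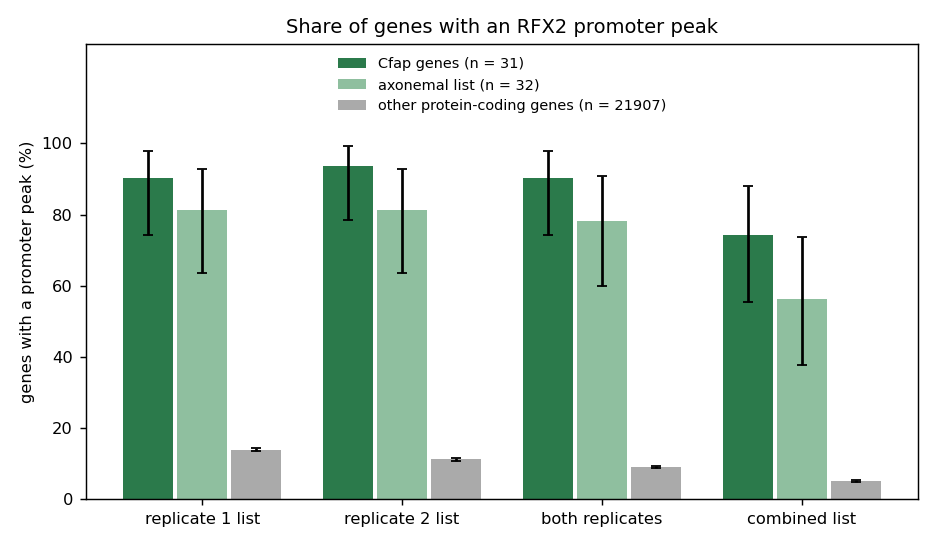
Bars give the share of genes (%) with an RFX2 promoter peak in each peak list, for the 31 Cfap genes, 32 other axonemal genes and 21907 other protein-coding genes. Error bars are exact 95% binomial intervals, which cover counting error only. Cfap shares run from 74.2% in the combined list to 93.5% in the replicate 2 list, and those of the other protein-coding genes from 5.16 to 13.9%.

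Cfap promoter peaks also stood high in their lists. The replicate lists give each peak a score on a −log10 scale, and since the lists were called separately, ranks within a list are given beside the scores. In replicate 1 the 28 Cfap genes had scores from 12.4 to 354 with a median rank of 1088, and the 3038 other genes with a promoter peak a median rank of 5246. The corresponding medians in replicate 2 were 665 for 29 Cfap genes and 2790 for 2445 other genes. In replicate 1, 24 of the 28 Cfap genes had a peak in the top 10% of the list, beside 44.0% of the other genes with a promoter peak, and in replicate 2 it was 21 of 29 beside 44.2%. The order of the Cfap genes was much alike in both animals, with a Spearman rho of 0.953 between scores over 28 genes, given as a description because both scores rise with peak height and share the same promoters. Replicate 1 has nearly all the Cfap genes of replicate 2, with Cfap100 the exception.

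**Figure D2:**
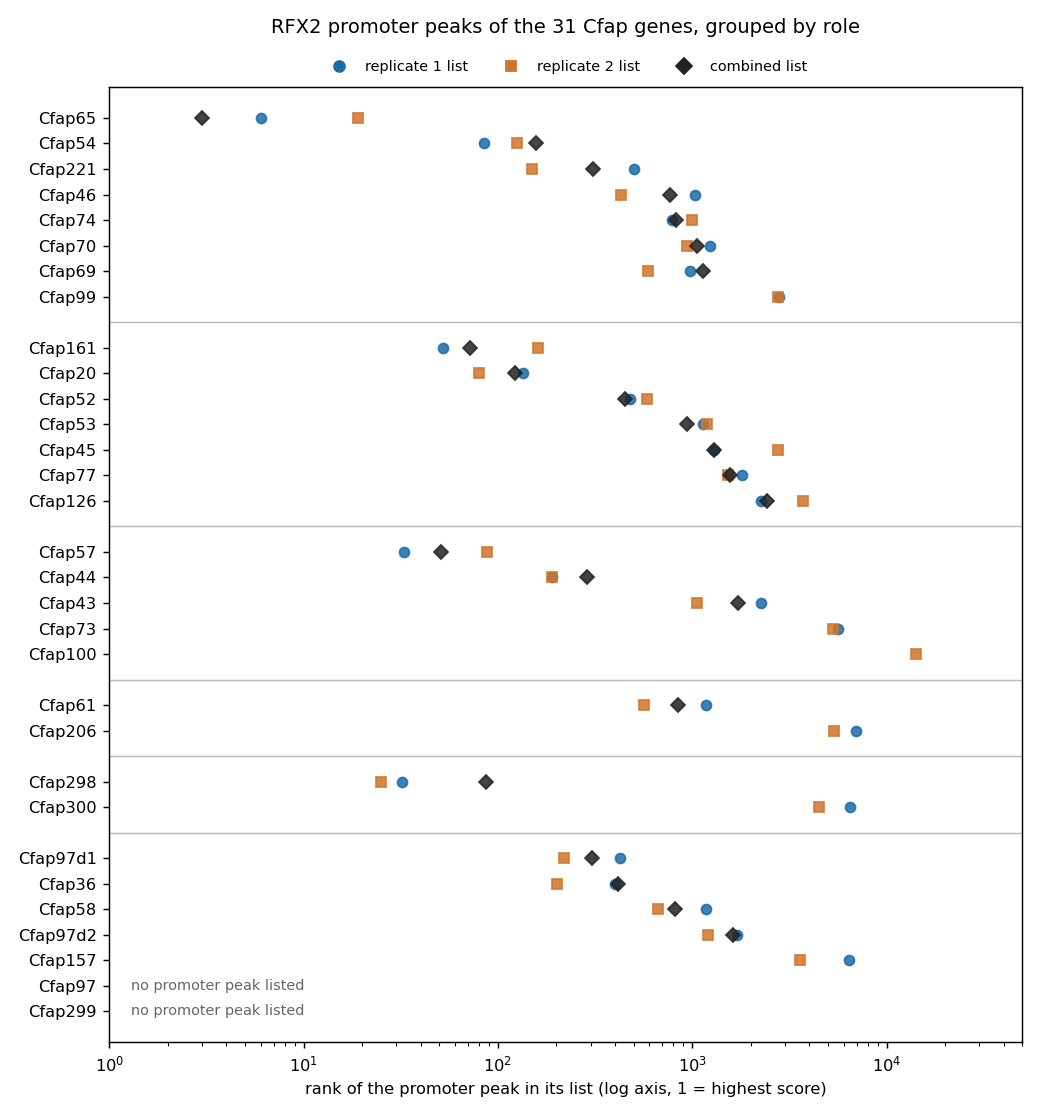
Each row is a Cfap gene, grouped by the role of its protein from the central apparatus at the top to genes of other roles at the bottom, and points give the rank of its promoter peak (log axis, 1 is the highest score) in the replicate 1, replicate 2 and combined lists. Ranks in the combined list run from 3 for Cfap65 to 2432 for Cfap126. Genes with replicate points alone had no combined promoter peak listed, and Cfap97 and Cfap299 had none in any list.

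The central apparatus is the central pair of microtubules with its projections, and it steers the beat. All 8 Cfap genes of the central apparatus had a promoter peak in both replicates and 7 had one in the combined list. Cfap65 (chr1:74934903-74936455), needed for sperm tail assembly, had a score of 354 in replicate 1, where it ranked 6, and 149 in replicate 2, where it ranked 19. In the combined list its −log10 p of 446 ranked 3 of all 2726 peaks, with a 48.0-fold enrichment over local background and the summit 31 bp upstream of the TSS. Cfap65 thus carried the strongest RFX2 peak of the family in each of the lists. Cfap54 (chr10:93081139-93082430), a large central apparatus subunit, scored 215 and 98.0 in replicates 1 and 2 and had a −log10 p of 231, a 27.0-fold enrichment and its summit at −36 bp. Cfap221 (chr1:119996821-119997930), also known as Pcdp1, scored 116 and 92.4, with a −log10 p of 183, a 17.5-fold enrichment and the summit at −1 bp. Its rank was 499 in replicate 1 and 150 in replicate 2.

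The other 4 central apparatus genes of the combined list had peaks of intermediate height. Cfap46 (chr7:139683424-139684175) scored 77.7 and 56.3, and its combined peak had a −log10 p of 119, a 16.9-fold enrichment and its summit at 23 bp, which makes it the median of the family. At Cfap74 (chr4:155408677-155409601) the scores were 91.9 and 31.7, the −log10 p 115, the enrichment 12.8-fold and the summit at −12 bp. For Cfap70 (chr14:20451744-20452652) they were 67.2 and 32.85, followed by a −log10 p of 99.0, a 19.95-fold enrichment and a summit at 2 bp. These 3 genes ranked between 784 and 1240 in replicate 1, and in replicate 2 between 430 and 997. Cfap69 (chr5:5663900-5664819), needed for sperm motility, scored 80.4 and 45.6, with a −log10 p of 93.8, the lowest enrichment of the family at 9.45-fold and its summit at 3 bp. Cfap99 had a peak in both replicates, with scores of 32.7 and 13.4 at ranks 2798 and 2771, and none in the combined list.

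Microtubule inner proteins line the inside of the doublet microtubules. All 7 of these Cfap genes had a promoter peak in both replicates and in the combined list. Cfap161 (chr7:83794327-83795709) scored 248 and 89.3, with a −log10 p of 276, a 42.0-fold enrichment and its summit at 13 bp, and ranked 72 in the combined list. Cfap20 (chr8:95434778-95435790), which sits at the inner junction between the tubules of a doublet, scored 197 and 114, with a −log10 p of 242, a 15.7-fold enrichment and its summit at −143 bp. Among microtubule inner protein genes these 2 had the highest scores in both animals. Cfap52 (chr11:67964950-67966247), another protein of the inner junction region, scored 119 and 46.1, with a −log10 p of 159, a 24.98-fold enrichment and its summit at 1 bp. Cfap53, known for its part in left-right asymmetry and sperm flagellum formation, scored 71.8 and 27.3, with a −log10 p of 105.5, a 26.45-fold enrichment and its summit at 3 bp.

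Weaker peaks lay at the remaining 3 genes of this group. Cfap45 (chr1:172520226-172521604) scored 65.1 at rank 1297 in replicate 1 and 13.5 at rank 2766 in replicate 2, with a −log10 p of 85.9, a 13.6-fold enrichment and its summit at −18 bp. Cfap77 (chr2:29055018-29055529) scored 49.9 and 22.0, with a −log10 p of 73.0, a 13.8-fold enrichment and its summit 227 bp upstream, the farthest from a TSS in the family. Cfap126 (chr1:171122724-171123490), or Flattop, which is also known in the positioning of basal bodies in multiciliated cells, scored 39.5 at rank 2261 and 10.1 at rank 3693. Its combined peak was the weakest of the family, with a −log10 p of 48.7, a 12.4-fold enrichment and rank 2432, and its summit lay at −18 bp of an internal TSS, 9214 bp from the 5′-most TSS. Among the Cfap genes without a combined peak, Cfap99 had the highest score in each replicate. In replicate 2 the rank of Cfap126 was below that of Cfap99, and in replicate 1 it was above.

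A further 5 genes encode proteins that tether inner dynein arms to the doublet or regulate them. In both replicates 4 of these had a promoter peak, and 3 had one in the combined list. Cfap57 (chr4:118620535-118621381), an inner arm regulator, scored 265 and 108, with a −log10 p of 295, a 25.9-fold enrichment and its summit at −1 bp, and ranked 51 in the combined list. Cfap44 (chr16:44394245-44395175) scored 174 and 83.9 and ranked 190 in each replicate, with a −log10 p of 191, a 20.3-fold enrichment and its summit at −16 bp. Cfap43 (chr19:47837258-47837676), whose product acts with that of Cfap44 in the tether, scored 39.6 and 29.9, with a −log10 p of 67.3, a 9.62-fold enrichment and a peak of only 419 bp. Both genes of the tether were therefore listed in every list, at ranks 286 and 1719 of the combined list.

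The Cfap43 peak lay at an internal TSS, with the summit at −82 bp of that TSS and 81823 bp from the 5′-most TSS, in an intron. Cfap43 was the only Cfap gene with a further combined peak inside the gene and outside its promoters (chr19:47914161-47914988), with a −log10 p of 50.7 at rank 2363, 4769 bp from the nearest Cfap43 TSS. Cfap73 scored 16.0 at rank 5650 and 7.91 at rank 5317, and had no combined peak listed. For Cfap100 a promoter peak was listed in replicate 2 alone, with a score of 4.31 at rank 14089 of 21274 peaks. It was the lowest-ranked promoter peak of any Cfap gene.

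Of the genes of the radial spoke and its calmodulin-binding complex, Cfap61 and Cfap206, both had peaks in both replicates and Cfap61 had a combined peak. Cfap61 (chr2:145934377-145935196) scored 70.6 and 47.0, with a −log10 p of 114, a 12.7-fold enrichment and its summit at 2 bp. Cfap206 scored 12.4 at rank 6949 and 7.67 at rank 5371, the lowest rank of a Cfap gene in replicate 1. Cfap298 and Cfap300 act in the cytoplasm in the assembly of dynein arms. Cfap298 (chr16:90934578-90935864) scored 265 at rank 32 and 139 at rank 25, with a −log10 p of 265, a 15.1-fold enrichment and its summit at −58 bp. It stood higher in each replicate than in the combined list, where it ranked 87. Cfap300 scored 13.04 at rank 6514 and 8.10 at rank 4488, with no combined peak.

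The 7 remaining genes have other or less settled roles. A promoter peak was listed for 5 of them in both replicates and for 4 in the combined list. Cfap97d1 (chr11:101983657-101984470) scored 127.6 and 78.3, with a −log10 p of 185, a 21.3-fold enrichment and its summit at −53 bp. Cfap36 (chr11:29246547-29248067) scored 131 and 80.55, with a −log10 p of 164.5, a 13-fold enrichment and its summit at −29 bp. Both lay near the top 1% of each replicate list, with Cfap36 at 1.002% and 0.9495% and Cfap97d1 at 1.07% and 1.03%. Cfap58 (chr19:47937080-47938127), needed for the sperm flagellum, scored 69.8 and 42.0, with a −log10 p of 115, a 22.2-fold enrichment and its summit at −23 bp. Cfap97d2 (chr8:13705401-13706225) scored 52.3 and 27.0, with a −log10 p of 70.7, a 12.9-fold enrichment and its summit at −21 bp.

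Cfap157, needed for a normal sperm tail, scored 13.5 at rank 6414 in replicate 1 and ranked 3587 in replicate 2, with no combined peak. Cfap97 and Cfap299 had no promoter peak in any list. Away from promoters, Cfap299 held 8 peaks in replicate 1, the highest scoring 30.7, but 1 in replicate 2 with a score of 3.23. In Cfap97, replicate 1 had 1 such peak with a score of 4.70 and replicate 2 had 2, the higher scoring 4.99. The absence of a peak says only that none passed the thresholds of these lists, whose lowest scores were 2.03 and 2.08.

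The 5 genes with peaks in both replicates and none in the combined list, Cfap73, Cfap99, Cfap157, Cfap206 and Cfap300, had peaks at overlapping positions in both animals. The overlap ranged from 188 bp at Cfap300 to 320 bp at Cfap73. In replicate 1 the peaks were chr5:120634138-120634741 at Cfap73, chr5:34288515-34288793 at Cfap99, chr2:32784279-32784662 at Cfap157, chr4:34730017-34730597 at Cfap206 and chr9:8042698-8043087 at Cfap300. The same stretch of promoter was thus listed in both animals at each of these genes. In replicate 1 all 5 scored below every Cfap gene of the combined list, and in replicate 2 Cfap99 and Cfap157 scored above Cfap126.

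**Figure D3:**
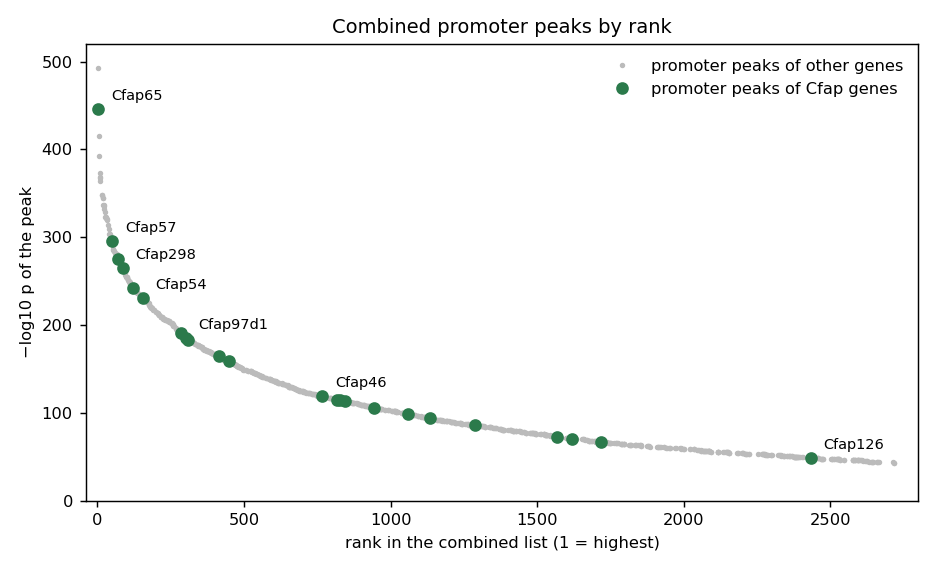
The −log10 p of every promoter peak in the combined list is plotted against its rank among all 2726 peaks (1 is the highest), with the 23 Cfap promoter peaks as large points over those of other genes in grey. Cfap peaks lie along the whole range, from a −log10 p of 446 to 48.7, with a median of 119 beside 102 for 980 other promoter peaks.

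Within the combined list, Cfap promoter peaks were somewhat higher than those of other genes, with wide overlap. Their median −log10 p was 119 (n = 23, range 48.7 to 446) and that of the 980 other promoter peaks 102. The lower and upper quartiles were 96.4 and 210.8 at Cfap genes, beside 66.7 and 161.5. Their median enrichment was 16.9-fold beside 15.0-fold, their median width 925 bp beside 879 bp, and the median GC content within 100 bp of the summit was 59.2% in both sets. For a typical Cfap peak, 40.4% of all 1003 promoter peaks had an equal or higher −log10 p. The combined list holds no peak with a −log10 p under 43.2, so these medians compare high peaks only. In the replicate lists, which reach lower scores, the median score was 74.7 at Cfap genes and 17.0 at other genes in replicate 1, and 42.0 and 13.2 in replicate 2. All 23 peaks were met by a peak in each replicate. The combined list shares reads with the replicates and may have been chosen for their agreement, so this is not independent replication. No Cfap gene had more than 1 promoter peak in the combined list.

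The summits lay close to the TSS. Relative to the nearest TSS of the gene the median position was −18 bp (range −227 to 23 bp), with 16 of 23 summits upstream, and the median among 1130 other genes was −44 bp. Within 50 bp of a TSS were 18 of 23 summits, or 78.3% (56.3 to 92.5%), beside 39.6% in the other genes, and within 100 bp 21 of 23, or 91.3%, beside 58.9%. Both sets had a median of 5 annotated TSSs per gene. Where a peak met promoters of several genes, each gene entered, also one whose TSS lay farther from the summit. This can lower the share near a TSS among the other genes. Measured from the 5′-most TSS alone, 14 of 23 Cfap summits, or 60.9%, lay within 50 bp, beside 27.3%. Cfap20 and Cfap77 were the members with summits more than 100 bp from a TSS, at −143 and −227 bp. By annotation, 10 summits lay upstream of the gene, 11 in a UTR, 1 in another exon (Cfap74) and 1 in an intron (Cfap43). Besides Cfap43 and Cfap126, the summits of Cfap36, Cfap45, Cfap74 and Cfap298 were upstream of an internal TSS only. They lay 92, 317, 56 and 129 bp downstream of the 5′-most TSS.

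**Figure D4:**
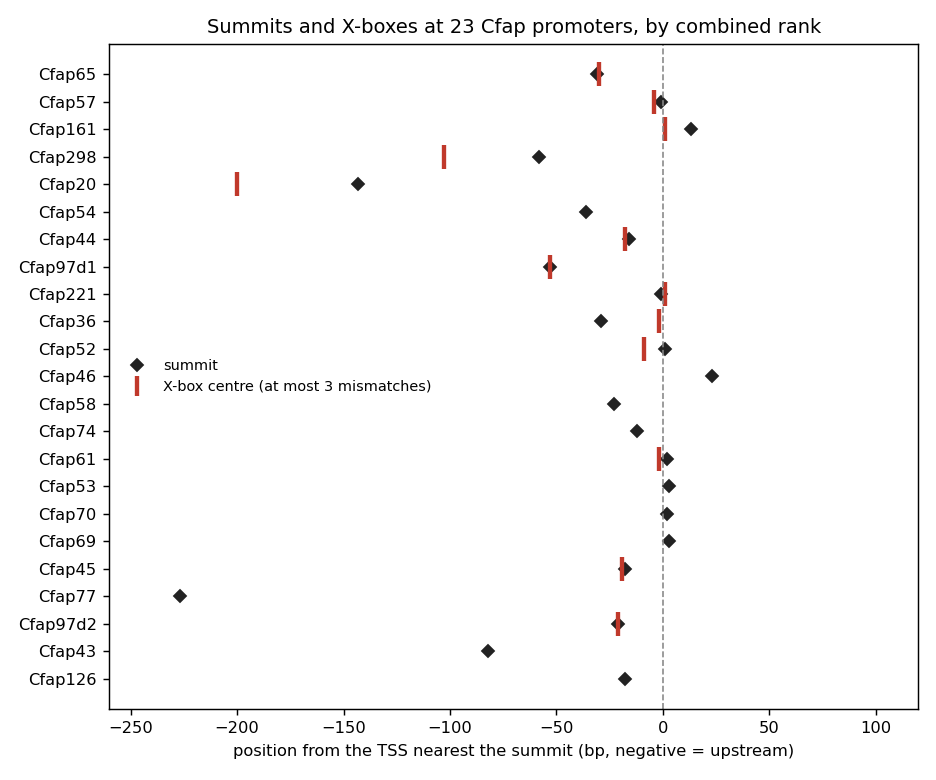
For the 23 Cfap genes with a combined promoter peak, ordered by rank, diamonds give the summit and bars the centre of the best X-box match with at most 3 mismatches, in bp from the TSS nearest the summit (negative is upstream). Summits gather at the TSS, with 18 of 23 within 50 bp, and 13 genes have a bar, 10 of them within 12 bp of the summit.

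A match to the palindrome with at most 3 mismatches lay within 100 bp of the summit at 13 of 23 Cfap promoter peaks, or 56.5% (34.5 to 76.8%). It was 30.4% with at most 2 mismatches, and 26.1% when the window was centred on the middle of the peak in place of the summit. With the main rule the share was 59.0% at the 980 other promoter peaks and 85.1% at the 1723 combined peaks outside promoters. In windows of the same length 1000 bp to each side of the Cfap summits no match was found in 46 windows (interval 0 to 7.71%), and the other promoter peaks had one in 0.765% of theirs. Cfap promoter peaks were thus like other promoter peaks in this measure. The X-box centre lay a median of 3 bp from the summit (n = 13, range 0 to 57 bp) at Cfap genes and 7 bp at the 578 other promoter peaks with a match. A match is a description of letters and does not show that RFX2 touched them.

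The matches can be followed in the sequences shown above, where position 1 is the 5′-most base of the match on the strand of the gene, and the base of the palindrome precedes that of the promoter. Cfap97d1 had the palindrome without a mismatch, centred on the summit. Cfap44 differed by C6T, 2 bp from its summit, and Cfap97d2 by T2G, at its summit. These near-perfect matches went with very different peaks, since Cfap97d1 ranked 303, Cfap44 ranked 286 and Cfap97d2 ranked 1620 in the combined list. With 2 mismatches followed 4 genes, Cfap45 (C6T and C11T), Cfap161 (T3C and C5T), Cfap221 (C5T and A12G) and Cfap298 (A7C and T8G). At Cfap298 the mismatches fall in the middle of the palindrome, so both arms are exact, and the match lay 45 bp from the summit. Another pair of exact arms, 3 bases apart in place of 2, also lay within 100 bp of that summit. The remaining 6, with 3 mismatches each, were Cfap20, Cfap36, Cfap52, Cfap57, Cfap61 and Cfap65, so the strongest Cfap peak did not have one of the closest matches.

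The other 10 Cfap promoter peaks had no match with at most 3 mismatches near the summit, those of Cfap43, Cfap46, Cfap53, Cfap54, Cfap58, Cfap69, Cfap70, Cfap74, Cfap77 and Cfap126. In 3 of these the X-box arms stood 1 base apart in place of 2. Cfap126 had both arms exact at this spacing, and Cfap54 and Cfap58 had 1 mismatch over both arms. Arms with a 1-base spacer and at most 2 mismatches were found at 3 of 23 Cfap promoter peaks, or 13.04%, and at 10.1% of the other promoter peaks. Counting spacers of 1 to 3 bases, 12 of 23 Cfap peaks, or 52.2%, had such arms, beside 64.2%. At least 1 exact 6-letter arm lay within 100 bp of 13 of 23 Cfap summits, or 56.5%, beside 56.8% at other promoter peaks, and in 6.52% of the windows 1000 bp away. Cfap161 and Cfap298 had 4 exact arms each, more than any other Cfap gene. For the others, no match says only that these letters were not found in this window.

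**Figure D5:**
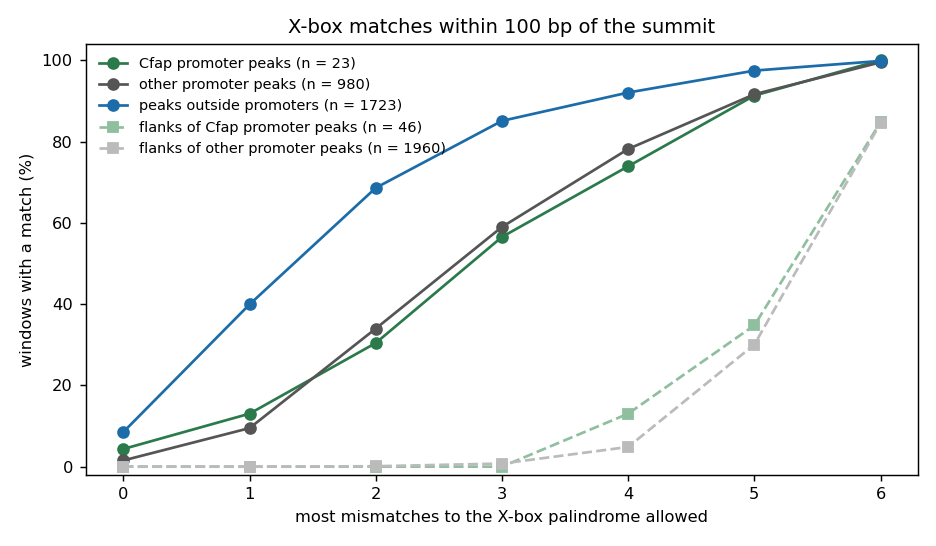
Lines give the share of windows (%) within 100 bp of a summit with a match to the X-box palindrome, by the most mismatches allowed, for Cfap promoter peaks (n = 23), other promoter peaks (n = 980), peaks outside promoters (n = 1723) and, dashed, the flanking windows of both promoter sets. At 3 mismatches Cfap peaks reach 56.5%, other promoter peaks 59.0% and peaks outside promoters 85.1%, and no flank of a Cfap peak has a match.

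The whole promoters were searched too, whether or not a peak was listed. At most 2 mismatches were found in the promoters of 8 of 31 Cfap genes, or 25.8%, and in 4.195% of the other protein-coding genes. All 8, Cfap44, Cfap45, Cfap54, Cfap97d1, Cfap97d2, Cfap161, Cfap221 and Cfap298, had a combined peak, beside 41.7% of the 919 other genes with such a match. Of the 23 Cfap genes without it, 15, or 65.2%, had a combined peak, beside 3.56% of the other genes without it. With at most 3 mismatches the share was 64.5% of Cfap genes and 17.5% of the other genes. Of the 11 Cfap genes with no such match, 6 had a combined peak, or 54.5%, beside 2.29%. Cfap genes were listed more often than other genes both with a match and without it. Among the members without a combined peak, Cfap97, Cfap99 and Cfap299 had a best match of 5 mismatches.

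A set of 4 Cfap promoter peaks also met the promoter of another protein-coding gene, in each case on the opposite strand, or 17.4% beside 16.1% of all promoter peaks. Cfap57 and Ebna1bp2 have TSSs 22 bp apart, and Cfap61 and Crnkl1 70 bp apart, so that the summits lay within 72 bp of both genes. At Cfap52 and Stx8 the TSSs were 551 bp apart and the summit lay 1 bp from Cfap52 and at −552 bp of Stx8. At Cfap97d1 and Dusp3 they were 472 bp apart, with the summit at −53 bp of Cfap97d1 and 525 bp downstream of the TSS of Dusp3. At Cfap52 and Cfap97d1 the summit was thus nearer the Cfap TSS, but a shared peak cannot be assigned to either gene from its position alone. Without these members, 19 of 27 Cfap genes had a combined promoter peak, and no matching share was computed for the other genes.

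Other genes of the axoneme were also listed often, with too few genes in each part to tell the parts apart. Of 32 such genes outside the Cfap name, which include Maats1 and Wdr66, 25 had a promoter peak in both replicates, or 78.1%. In the combined list it was 18, or 56.3% (37.7 to 73.6%), beside 74.2% (55.4 to 88.1%) of the Cfap genes. The difference was not tested. All 6 central pair genes had a combined peak, as did 7 of the 8 Cfap genes of the central apparatus. Hydin, which encodes a giant central pair protein, had a −log10 p of 364 at rank 11. Maats1 and Wdr66, the genes of Cfap91 and Cfap251, had −log10 p values of 248 and 337 at ranks 112 and 22. Combined peaks were listed for 3 of 6 radial spoke genes, 4 of 7 of the nexin-dynein regulatory complex, both ruler genes (Ccdc39 and Ccdc40), 1 of 4 inner arm dynein genes (Dnah10) and 0 of 5 outer arm dynein genes. Of those outer arm genes, 2 had a promoter peak in both replicates and 3 had one in replicate 2. The intervals of the combined shares were wide, at 0 to 52.2% for outer arm and 0.631 to 80.6% for inner arm dynein genes. Among the other protein-coding genes the combined share was 5.16%.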

How the data were processed

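RFX2 ChIP-seq of 2 WT testis samples, each with an input, was analysed from the deposited peak lists. Per the study's methods and the submitters' processing notes, the authors used CASAVA 1.8.2, mapped reads to GRCm38 with Bowtie 0.12.7, discarding reads with several locations, and called peaks against input with MACS2 2.0.10.20130520. Reads mapping to the human genome were removed from the resequenced library of replicate 2. The deposited replicate lists give a score on a −log10 scale (p or q is not stated). The combined list, deposited with replicate 2, gives the authors' score, −log10 p and −log10 q values, the summit, and the ratio of ChIP signal to local background (fold enrichment). It was read as a pooled call because its peak names begin with "all" and run to 29491 while it holds 2726 peaks, the lowest with a −log10 p of 43.2. The study's methods kept peaks that were reproducible between the replicates, at an irreproducible discovery rate threshold of 0.01. The number of reproducible peaks that the study gives is close to that of the combined list, but not the same. Whether the combined list is that set could not be settled, so its peaks may have been chosen for agreement between replicates. Read depth is not in the lists, so the depth behind each peak is unknown. Inputs entered only through peak calling.

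Promoters were taken from GENCODE release 21 and sequence from RefSeq, both GRCm38, with Python 3.11.15, NumPy 2.4.6, SciPy 1.17.1 and pysam 0.24.0. Counts were checked with bedtools 2.31.1, and the search for peaks and X-boxes was tested on simulated data. Where a gene met several peaks, that with the highest score was used. Binomial intervals are Clopper-Pearson at 95%. No test was made. Every member with a combined promoter peak was named with its values, as were members with replicate peaks or none, and genes sharing a promoter peak. Sequences touching a transcript were limited to 8 bases beside the match, others to 30. Members, roles and the axonemal list were chosen with earlier results of these data known. Alternatives were other TSS sets, promoter widths, score thresholds and X-box rules.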

Additional observations from a re-analysis of the deposited data

How the results depend on the processing

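Of 36 alternative settings over 9 results, 32 left the result within its limits and 4 moved it beyond them. The limit for counts was wide, since 19 Cfap genes in place of 23 still passed as unchanged. With the upper 50% of the combined list, 19 Cfap genes kept a promoter peak, and the share of other protein-coding genes fell from 5.16 to 3.34%. Of Cfap promoter peaks, 30.4% had an X-box with at most 2 mismatches, and 26.1% had one within 100 bp of the peak centre in place of the summit. The median summit position moved from −18 bp, upstream, to 6 bp, downstream, when only the 5′-most TSS was used. Some summits lie at internal TSSs. Leaving out each replicate in turn gave 28 to 29 Cfap genes where both replicates gave 28. A single list could not have given fewer, so this says nothing about stability. The count without shared promoter peaks and the search with other spacers were chosen after seeing the data. No paired analysis was possible because the inputs, which share replicate numbers with the ChIP samples, have no peak list here and the counts come from no test. Unknown read depth and 2 animals limit what weak peaks can show.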

Other observations

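By their place as a share of the list, 22 of the 28 Cfap genes with a peak in both replicates stood higher in replicate 1 and 6 in replicate 2. By rank, 18 stood higher in replicate 2 and 10 did not. The 2 measures differ because the replicate 1 list is longer, with 39825 beside 21274 peaks, so neither shows stronger occupancy in 1 replicate. Cfap221 lay in the top 1.25% of the replicate 1 list and the top 0.705% of the replicate 2 list, and Cfap161 in the top 0.131% and 0.752%. A search of the whole peak in place of the 100 bp around the summit found an X-box at 14 of 23 Cfap promoter peaks, or 60.9%.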
